A study of Caenorhabditis elegans with 2 samples.

Results

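The regions described here lie more than 500 and up to 2000 bp upstream of the nearest protein-coding gene on an autosome of *C. elegans* and were occupied by EGL-43::GFP in L3 larvae. EGL-43 is the worm homolog of mammalian EVI1 (MECOM), a zinc finger transcription factor with separate N-terminal and C-terminal finger clusters, and it is needed for anchor cell specification and for invasion of the vulval epithelium. Overlapping peaks were joined, with 1 bp in common as the minimum, and 7259 of the joined regions held a peak of each replicate (shared regions). A shared region was a member if its highest summit lay outside every protein-coding gene body of the Ensembl WBcel235 annotation, more than 500 and up to 2000 bp upstream of the nearest start on that gene's strand, with no start within 500 bp in that direction. Beyond the peak calls, the rule used enrichment only to choose the highest summit of a region, and otherwise positions. It was met by 977 of the 7259 shared regions (13.5%, 95% Clopper-Pearson interval 12.7 to 14.3%). This interval, like all intervals here, covers counting error only.

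All larvae carried the allele *zh136*, in which the endogenous *egl-43* gene ends in *gfp*, so that both isoforms are tagged, in a background that the labels call wild-type. Larvae hatched at 20°C and were kept at 25°C for 27 h. Each of 2 independently grown populations was cross-linked with EGS and formaldehyde, and the tagged protein was precipitated with an antibody against GFP. The series had 1 condition and no control library was used here, so the members were compared with the other shared regions and with surrounding sequence. The paper places most EGL-43::GFP expression at this stage in the somatic gonad and in some neurons of the head and tail. Chromatin came from whole larvae, so the cells behind a value are unknown.

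Sequence upstream of a gene carries the elements that transcription factors read, both close to the start and in enhancers farther away. In *C. elegans* many messages are trimmed and trans-spliced, so that transcription can begin upstream of the annotated start, and a distance in bp is a distance to the annotated start. A summit near a gene does not tell that the gene is regulated by the protein bound there.

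The following windows reach 50 bp to either side of the summits of 9 members and are printed on the plus strand of ce11/WBcel235. They are shown because their letters recur below. Capitals mark the words GAGAGA and GAGACGCAG on either strand.
*unc-70*, chrV:6879545-6879645: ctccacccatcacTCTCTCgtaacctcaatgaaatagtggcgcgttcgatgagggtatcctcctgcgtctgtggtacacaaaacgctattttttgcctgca
*Y97E10C.1*, chrV:7728317-7728417: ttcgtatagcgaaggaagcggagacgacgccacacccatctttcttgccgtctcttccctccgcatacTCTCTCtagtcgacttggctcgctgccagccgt
*egl-43*, chrII:9954416-9954516: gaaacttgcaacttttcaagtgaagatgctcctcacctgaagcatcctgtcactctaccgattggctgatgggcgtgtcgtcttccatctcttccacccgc
*gpb-1*, chrII:11749965-11750065: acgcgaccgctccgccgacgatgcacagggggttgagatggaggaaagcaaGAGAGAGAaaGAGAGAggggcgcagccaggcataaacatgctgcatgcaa
*unc-64*, chrIII:13275920-13276020: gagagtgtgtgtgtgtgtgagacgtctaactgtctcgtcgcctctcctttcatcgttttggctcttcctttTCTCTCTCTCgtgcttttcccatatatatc
*F28F9.3*, chrIV:3824885-3824985: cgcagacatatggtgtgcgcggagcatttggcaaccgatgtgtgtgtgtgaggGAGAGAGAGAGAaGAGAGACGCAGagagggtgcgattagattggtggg
*frm-8*, chrIII:3220427-3220527: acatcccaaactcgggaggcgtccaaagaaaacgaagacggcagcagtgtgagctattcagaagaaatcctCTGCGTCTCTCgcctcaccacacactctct
*cki-1*, 1993 bp upstream, chrII:7809197-7809297: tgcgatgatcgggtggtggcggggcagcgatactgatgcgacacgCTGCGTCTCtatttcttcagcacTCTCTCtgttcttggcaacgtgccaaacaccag
*lin-12*, chrIII:9071973-9072073: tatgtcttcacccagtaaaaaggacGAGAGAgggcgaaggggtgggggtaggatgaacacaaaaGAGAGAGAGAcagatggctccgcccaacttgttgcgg

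Enrichment was read as the fold enrichment at the summit that the authors' peak caller gave, a ratio of the reads there to the estimated background. The median over members was 4.18-fold in replicate 1 and 4.81-fold in replicate 2, and the middle 50% lay between 3.27 and 6.01 in replicate 1 and between 3.69 and 6.74 in replicate 2. Members ranged up to 19.8-fold in replicate 1 and 18.6-fold in replicate 2. The medians of the other classes were 4.09 and 4.52 for summits 1 to 500 bp upstream, 3.83 and 4.30 for distal intergenic regions, 3.92 and 4.47 for introns, 3.51 and 3.97 for exons, and 3.76 and 4.30 for the X chromosome, in replicates 1 and 2 in this order. The members had the highest median of these classes in both replicates, but they exceeded the class at 1 to 500 bp upstream by less than replicate 2 exceeded replicate 1.

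The upper end of the distribution held more of the members. A fold enrichment of at least 8 in both replicates was reached by 105 members (10.7%, interval 8.87 to 12.9%), against 7.29% of all shared regions. The share was 6.402% (5.10 to 7.92%) at 1 to 500 bp upstream, 7.20% (5.84 to 8.77%) in distal intergenic regions, 7.18% (5.96 to 8.57%) in introns, 4.26% (2.62 to 6.51%) in exons and 6.96% (5.80 to 8.26%) on the X chromosome. The lower end of the members' interval, 8.87%, lay just above the upper end of that of distal regions, 8.77%, and above the others. A q-value of at most 1e-05 in both replicates was held by 897 members (91.8%), near the 90.7% of all shared regions. Both fold enrichment and q-value come from the same reads, and the depth of the libraries is unknown because the lists give no read totals.

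The replicates placed the members at nearly the same positions. The summits of a member lay 23 bp apart at the median, 80 members had summits more than 100 bp apart, and 935 of the 977 consisted of 1 peak from each replicate. Across members the fold enrichments of the replicates had a Spearman correlation of 0.85 and, on the log2 scale, a Pearson correlation of 0.88; members are not independent replicates. Replicate 2 was higher in 675 members (69.1%), with a median log2 ratio of 0.15 and an SD of 0.30 over members, and 95% of the log2 ratios lay between -0.47 and 0.71. This spread is that of a member between the replicates and includes the general shift of replicate 2. It is only a rough guide to differences between 2 members, and a smaller difference should not be read as real.

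**Figure D1:**
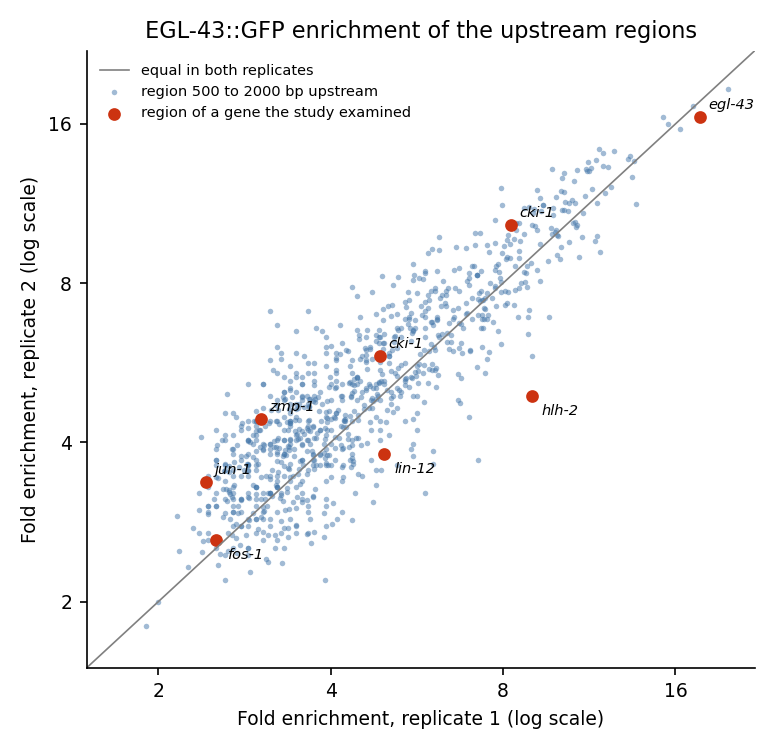
Fold enrichment at the summit in replicate 1 (x axis, log scale) and replicate 2 (y axis, log scale) of the 977 members, with the 8 regions of genes the study examined in red and the line of equal values in grey. Most points lie above the line, as 675 members were higher in replicate 2, and the *hlh-2* region stands off the line with 8.97 and 4.89.

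The 5 members with the largest log2 ratios in either direction were set apart from this spread. The region 1427 bp upstream of *ptp-1*, a tyrosine phosphatase gene, had 3.14-fold enrichment in replicate 1 and 7.09-fold in replicate 2. The region of *srh-171*, a chemoreceptor gene, had 3.22 and 6.67, that of F45H10.5 had 3.66 and 7.09, and that of *gei-1* had 3.22 and 6.05. The region of *pygo-1*, a Pygopus homolog, went the other way, with 7.23 in replicate 1 and 3.71 in replicate 2. The replicates of *ptp-1* and *srh-171* differed by more than 2-fold, which no other member did.

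The region with the highest enrichment lay 1743 bp upstream of *unc-70*, which encodes beta-spectrin, on chromosome V at 6879344 to 6880145. It had 19.8-fold enrichment in replicate 1 and 18.6-fold in replicate 2 and was the second highest of all 7259 shared regions. Its summit lay inside the annotated noncoding RNA genes T19F4.5 and T19F4.6, which the rule does not count as gene bodies. A second member lay 543 bp upstream of *unc-70*, with 4.86 and 5.19.

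The next member lay 512 bp upstream of Y97E10C.1 on chromosome V, with 17.2 and 17.3. The third was the region upstream of *egl-43* itself, with 17.7 in replicate 1 and 16.5 in replicate 2. It covered chromosome II from 9953371 to 9955379, and its summit lay at 9954466, 719 bp upstream of the annotated *egl-43* start at 9955185. Replicate 1 had a single peak across the whole stretch. Replicate 2 had a peak from 9953371 to 9954768 with a summit 11 bp from that of replicate 1, and a separate, lower peak from 9954924 to 9955361 with 5.401-fold enrichment and its summit at 9955186, next to the *egl-43* start. The *egl-43* member therefore joined a strong upstream peak with a weaker one at the start.

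The Fos-responsive element of *egl-43*, which the study deleted in one of its alleles, lies in the same merged region. It is shown here because 2 of the words searched overlap in it, TTACTCA, an AP-1-like word, and CTCATCT, the reverse complement of AGATGAG, the word bound by the C-terminal fingers of mammalian EVI1. Capitals mark both words in a stretch of 40 bases on the plus strand of chromosome II.
*egl-43* element, chrII:9955089-9955128: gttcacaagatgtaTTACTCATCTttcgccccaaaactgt
The first letter of TTACTCA lies 82 bp upstream of the annotated start and 637 bp from the summit of the region, so it fell outside the window printed above and inside the weaker peak that replicate 2 called separately. The merged region held 2 matches of AGATGAG, 1 match of TTACTCA and 2 of GAGAGA (both strands, overlapping matches counted), none of them in the summit window.

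The remaining members among the 20 highest stood upstream of genes of several kinds. Signalling proteins included *gpb-1*, the beta subunit of heterotrimeric G proteins (15.2 in replicate 1 and 16.5 in replicate 2), *gpa-7*, a G alpha subunit (11.4 and 13.2), and *hgap-1*, a GTPase-activating protein gene (16.3 and 15.7). The *gpb-1* region also lay 1421 bp upstream of F44E5.17, on a summit between the genes. Proteins of the synapse and of membrane traffic included *unc-64*, which encodes syntaxin (13.4 and 12.7), *ccb-1*, a calcium channel beta subunit (13.3 and 13.9), and *rab-5*, the GTPase of early endosomes (11.4 and 12.1). Nuclear and RNA proteins included *din-1*, a corepressor of the receptor DAF-12 (15.6 and 15.995), *top-1*, a topoisomerase (13.2 and 13.8), *sor-1*, a repressor of Hox genes (12.3 and 12.1), and *smg-6*, a nuclease of nonsense-mediated decay (11.6 and 13.7). The *rab-5* region also lay 887 bp upstream of *nmat-2*, and the *top-1* region also lay 1550 bp upstream of M01E5.4.

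The other 7 were *dip-2* (13.5 and 13.6), T23F11.2 (12.5 and 14.2), F28F9.3 (12.2 and 13.2), *kal-1*, the anosmin homolog (11.9 and 13.3), *frm-8* (11.9 and 14.1), F59C6.18 (12.05 and 11.8) and K10G9.2 (11.8 and 14.3). The F59C6.18 region lay upstream of *exos-3*, an RNA exosome gene, and *che-13*, a gene for building cilia, as well, at 1203 and 1590 bp. All 20 had at least 11.379-fold enrichment in both replicates. The summits of the *gpa-7* region lay 259 bp apart in the replicates.

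**Figure D2:**
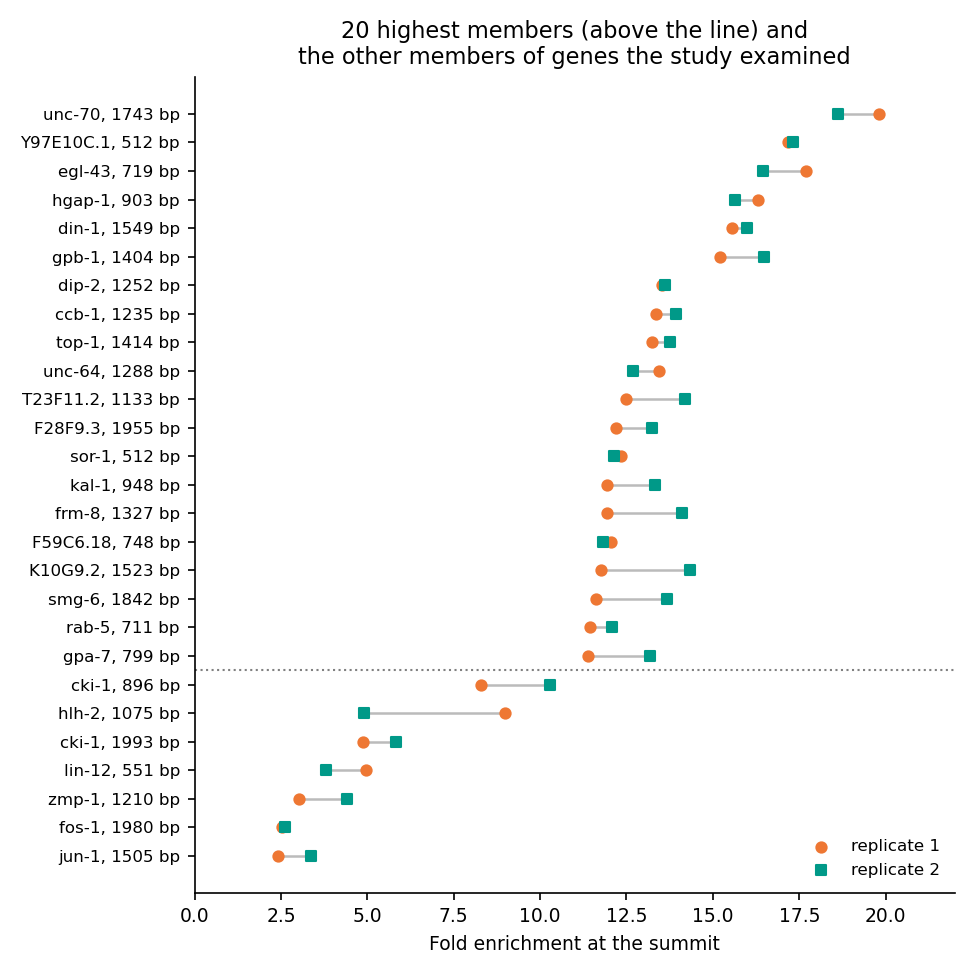
Fold enrichment at the summit (x axis) in replicate 1 (circles) and replicate 2 (squares) of the 20 highest members and, under the dotted line, of the other members of genes the study examined, each with its distance upstream. The 20 highest lie between 11.4 and 19.8, and the lower 7 between 2.43 and 10.3.

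Of 17 genes that the study examined, 7 had a member, with 8 regions in all, against 5.24% of all autosomal protein-coding genes. The paper reports EGL-43 binding at *egl-43*, *fos-1*, *lin-12*, *jun-1*, *mig-10*, *hlh-2* and *zmp-1* from these same data. The count is therefore no independent evidence. Of the 17 genes, only *egl-43* was among the 20 highest. *cki-1*, which encodes the CDK inhibitor that holds cells in G1, had 2 members. One lay 896 bp upstream, with 8.27-fold enrichment in replicate 1 and 10.3-fold in replicate 2 and rank 94 of 977, and the other lay 1993 bp upstream, with 4.88 and 5.82. The second held both words printed in capitals above, and the first held neither. *hlh-2*, the worm E protein, had a member 1075 bp upstream with 8.97 and 4.89, and this log2 ratio of -0.87 lay outside the central 95% of members.

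Of the other 4 members of this set, those of the AP-1 genes lay close to the lower end of the distribution. *lin-12*, a Notch receptor gene, had a member 551 bp upstream with 4.96 in replicate 1 and 3.798 in replicate 2, under a summit with 2 separate GA repeats. *zmp-1*, a matrix metalloprotease gene of the anchor cell, had 3.02 and 4.42 at 1210 bp. The AP-1 genes had the lowest values, with 2.53 and 2.62 at 1980 bp upstream of *fos-1* and 2.43 and 3.37 at 1505 bp upstream of *jun-1*. They ranked 938 and 957 of 977, and the summits of *jun-1* lay 325 bp apart in the replicates.

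Of the other 10 genes, *him-4* is on the X chromosome, and *mcm-7* and *rnr-1* had no sequence that met the rule, so no region could have been assigned to them. *hda-1* and *lin-3* had 130 and 249 bp of such sequence. *mig-10*, *nhr-67*, *cdh-3*, *cyd-1* and *lag-2* had 1065 bp or more and no member, which says nothing of summits in their introns or nearer their starts.

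The density of shared regions fell sharply within the first 500 bp upstream and then stayed level across the stretch that holds the members. Sequence outside gene bodies with its nearest start more than 500 and up to 2000 bp downstream amounted to 9.01 Mb of the autosomes and held 108.5 members per Mb. The density was 197.4 per Mb at 1 to 500 bp upstream, 88.4 in distal intergenic sequence, 57.1 in introns and 18.6 in exons. The highest 100-bp step was that of 100 to 200 bp upstream, with 256.3 per Mb, and the density had dropped to 93.3 per Mb at 500 to 600 bp.

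Within the members no further decline with distance was seen. The density was 103.8 per Mb at 500 to 1000 bp, 119.0 at 1000 to 1500 bp and 103.4 at 1500 to 2000 bp, and it was 109.4 at 2000 to 3000 bp, outside the upper limit. Peaks of each replicate alone gave the same picture, with 118.1, 139.8 and 116.7 per Mb in replicate 1 and 146.4, 167.7 and 153.5 in replicate 2 over these 3 steps. The median fold enrichment over these steps was 4.29, 4.25 and 3.90 in replicate 1 and 4.88, 4.81 and 4.59 in replicate 2. The limits of the rule thus cut through a level stretch at 2000 bp and through the foot of a slope at 500 bp.

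**Figure D3:**
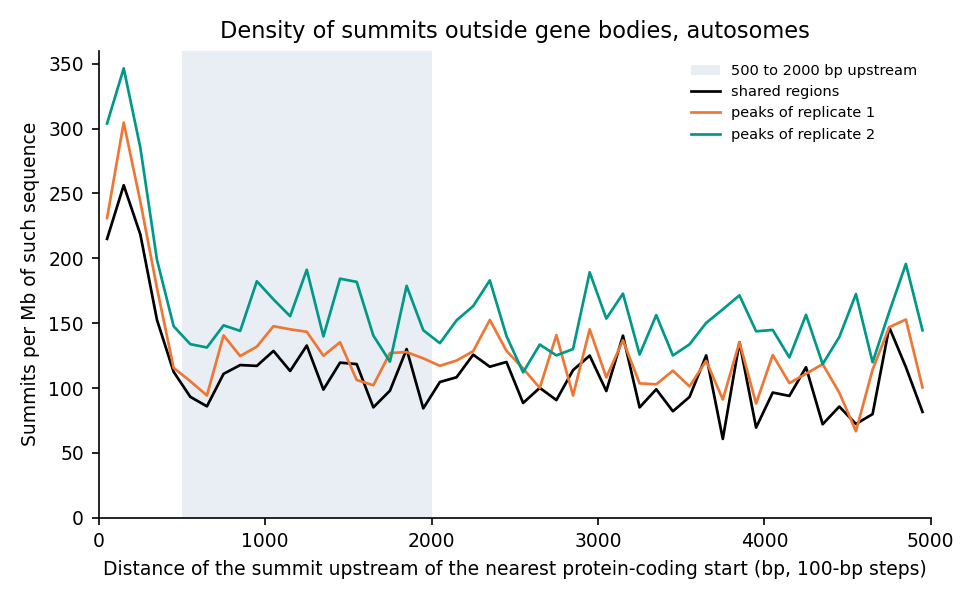
Summits per Mb of autosomal sequence outside protein-coding gene bodies (y axis) against the distance upstream of the nearest start (x axis, 100-bp steps), for shared regions and for the peaks of each replicate. The shaded stretch holds the members, where shared regions lie between 84.3 and 132.8 per Mb, against 256.3 per Mb at 100 to 200 bp.

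At the near limit, members just inside lay 1 bp beyond 500 bp, upstream of *ceh-23* (4.62 in replicate 1 and 5.06 in replicate 2), *paqr-1* (3.45 and 3.77) and *sta-1* (6.13 and 6.83). The regions just outside lay 500 bp upstream of *asd-1* (5.89 and 4.99) and 499 bp upstream of *pry-1* (4.88 and 5.40). At the far limit, the members just inside lay 1998 bp upstream of *mfsd-6* (2.69 and 2.68) and 1994 bp upstream of *pacs-1* (6.88 and 9.33), and the regions just outside lay 2003 bp upstream of K08B12.3 (6.26 and 7.26) and 2004 bp upstream of C43G2.3 (7.99 and 6.49).

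The chromosomes differed in how densely such sequence was occupied. Members made up 15.996 to 18.9% of the shared regions of each autosome. Per Mb of sequence that met the rule, however, chromosomes III and I held 172.8 and 162.5 members, and chromosomes II, IV and V held 105.3, 87.0 and 69.7. Chromosome V had the most such sequence, 2.73 Mb, and 190 members, and chromosome III had the least, 1.24 Mb, and 215 members. Median fold enrichment was between 3.98 and 4.40 in replicate 1 and between 4.51 and 5.13 in replicate 2 on all 5 chromosomes.

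The 977 members named 903 genes as their nearest start, which is 5.24% of 17242 autosomal protein-coding genes. A single member was assigned to 830 of them, 72 had 2, and *bath-44* had 3, at 520, 820 and 1153 bp with lower fold enrichments of 2.78, 3.14 and 5.32. Several IDs share a name with near-identical copies in the annotation, among them 4 of *his-51* and 2 of *hsp-16.48*, and reads of such copies cannot be placed with certainty. In 161 members a second start lay within 2000 bp as well, on the other strand in 149 of them, so that the nearest start is 1 of several candidates there. Only 10188 genes (59.1%) had any sequence that met the rule.

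Some genes with a member also had a shared region close to their start. A region at 1 to 500 bp upstream was found for 139 of the 903 genes (15.4%), against 1505 of all 17242 (8.73%). Genes with a member have long upstream sequence by construction, and the part of this in the difference was not tested. The *cki-1* and *jun-1* starts were among these 139, and the *egl-43* start was not. The weaker peak at the *egl-43* start was joined to the member, and its own summit, 9955186, lay inside the gene body. Some summits fell in annotated noncoding genes. The summit of 104 members (10.6%, interval 8.78 to 12.7%) lay inside one, mostly of the class ncRNA (85 members), against 8.43% at 1 to 500 bp upstream, 11.1% in distal intergenic regions and 9.33% in introns. The share was lower in exons, 2.13% (1.03 to 3.89%), and higher on the X chromosome, 13.4% (11.8 to 15.1%), where the interval overlapped that of the members.

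Of the words searched at the summits, GAGAGA stood in the most members. It was found within 50 bp of the summit in 392 members (40.1%, interval 37.03 to 43.3%). It stood in 5.58% (4.60 to 6.69%) of 1954 windows of the same width centred 500 bp to either side, and in 5.77% of 83500 windows that tile all sequence meeting the rule. The word was less frequent in the other classes, with 31.4% at 1 to 500 bp upstream, 32.1% in distal intergenic regions, 31.6% in introns, 25.16% in exons and 21.6% on the X chromosome, and the highest upper end of these intervals was 34.8%. Among members its share was 40.05% at 500 to 1000 bp, 41.8% at 1000 to 1500 bp and 37.8% at 1500 to 2000 bp, and it was 48.4% on chromosome I and 36.2 to 38.7% on the other autosomes.

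The share followed enrichment. Members were put in order of the smaller of the replicates' fold enrichments and divided into 4 parts of 244 or 245. The word stood in 57.96% of the highest part (lower fold enrichment of at least 5.82), 36.9% and 35.7% of the middle parts and 29.9% of the lowest. Members with the word had median fold enrichments of 4.96 in replicate 1 and 5.48 in replicate 2, and those without it had 3.92 and 4.43. Of the members printed above, the *gpb-1* window had a run of the word at the summit, *F28F9.3* a longer one, and the *egl-43* window had none.

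A second word, GAGACGCAG, was chosen after the data were seen, as the word of 9 bases whose share differed most between the summit windows and the flanks of the members. It stood in 126 members (12.9%), 0.82% of flanks and 0.62% of tiled windows, and in 74 members it stood beside GAGAGA. By the same 4 parts its share was 20.0%, 17.6%, 10.7% and 3.28%. It stood in 14.3% of regions at 1 to 500 bp upstream, 10.05% of distal, 9.39% of intronic, 8.32% of exonic and 4.17% of X regions. The *frm-8* and *cki-1* windows show its reverse complement CTGCGTCTC, and in F28F9.3 it follows a GA run directly. At least 1 of these words was present in 444 members (45.4%), and 533 had neither, with median fold enrichments of 3.75 and 4.39.

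**Figure D4:**
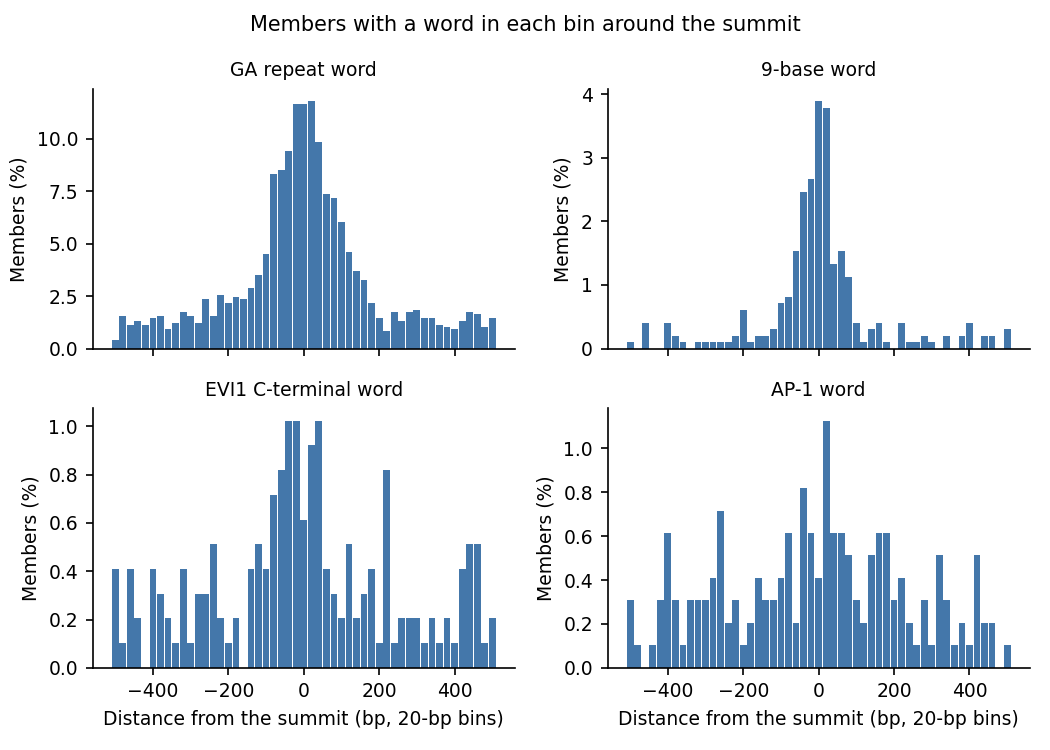
Percent of the 977 members (y axis) with a word in each 20-bp bin around the summit (x axis), for the GA repeat word, the 9-base word, the EVI1 C-terminal word and the AP-1 word, each panel with its own scale. The GA repeat word peaks at 11.8% in the bin at 20 bp and the 9-base word at 3.89% at the summit, and the lower panels reach 1.02% (EVI1) and 1.13% (AP-1).

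The sites known for EVI1 stood in few members, but AGATGAG was more frequent there than in the flanks. AGATGAG, the word of the C-terminal fingers, stood in 39 members (3.99%, interval 2.85 to 5.42%), against 1.43% (0.95 to 2.06%) of flanks and 1.12% of tiled windows, and the other classes held 3.65 to 4.60%. By the same 4 parts it stood in 15, 8, 8 and 8 members, 6.12% of the highest part and 3.28% of each other part. Its longer form GAAGATGAG stood in 9 members, against 7 of 1954 flanks. ACAAGATA, the word of the N-terminal fingers, stood in 3 members, against 10 flanks.

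The AP-1 word TGACTCA, on either strand, stood in 32 members (3.28%, 2.25 to 4.59%), against 0.97% (0.59 to 1.51%) of flanks. TTACTCA stood in 1.33% of members and 1.33% of flanks. The E-box words CACCTG and CACGTG stood in 3.28% and 1.84% of members and in 2.41% and 1.64% of flanks, and the forkhead word TGTTTAC in 1.94% and 1.28%, all with overlapping intervals. The words rich in A and T were less frequent at the summits than beside them, with the GATA word TGATAA in 3.89% of members and 9.11% of flanks and the homeodomain word TAATTA in 3.48% and 5.94%.

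Base composition moved with these shares. The summit windows of the members had a GC content of 45.7 ± 7.33% (SD over 977 windows), against 33.4 ± 8.33% in the flanks and 34.1 ± 8.21% in the tiled windows. Soft-masked repeats made up 17.1% of bases in the summit windows, against 42.1% in the flanks. The part of composition in the word shares was not tested. A match to a word is a match of letters, and no binding was measured at the level of a word.

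Gene lists chosen with earlier results of these data known were read against the 5.24% of all autosomal genes and against the density of 108.5 members per Mb, as a description without a test. Genes of anchor cell invasion had the highest share, 10 of 26 (38.5%, interval 20.2 to 59.4%) and 487 members per Mb. They were *egl-43*, *cki-1*, *cdc-42* (5.17 in replicate 1 and 5.401 in replicate 2), *hlh-2*, *lin-12*, the integrin genes *ina-1* (3.58 and 3.63) and *pat-3* (2.96 and 3.29), *zmp-1*, *fos-1* and *jun-1*. Their median fold enrichments of 4.88 and 4.42 lay on either side of the medians of all members, 4.18 and 4.81, so the list stood out by number and not by height. A stronger member, assigned to the nearer start of *ccdc-47* (7.41 and 6.84), also lay 1776 bp upstream of *pat-3* and was not counted for it. This list contains genes that the study took up, and its share is no independent evidence.

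Wnt pathway genes had a member in 8 of 24 cases (33.3%, 15.6 to 55.3%), with 10 members in all and 375.97 per Mb. The highest were upstream of *kin-19*, a casein kinase gene (7.76 in replicate 1 and 8.62 in replicate 2), *wrm-1*, a beta-catenin gene (7.11 and 8.62), *pry-1*, the Axin homolog (7.52 and 6.97, at 1921 bp, besides its region at 499 bp), and *pop-1*, the TCF factor (7.32 and 6.58). The others were *dsh-1*, *cam-1*, *cfz-2* and *mom-5*. Axon guidance genes had a member in 9 of 28 cases (32.1%, 15.9 to 52.4%) and 280.2 members per Mb, and *cam-1*, a receptor tyrosine kinase gene with 2 members, is on both lists. The highest there were *unc-51*, the ULK kinase gene (11.198 and 13.04), *unc-33*, a CRMP homolog (7.07 and 6.84), *unc-44*, an ankyrin gene (6.42 and 7.82), and *unc-73* (4.68 and 6.06).

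EGF and Ras pathway genes had a member in 4 of 23 cases, *gap-3* (6.04 and 6.67), *let-60*, the Ras gene (3.17 and 3.16), *lip-1* (3.14 and 5.74) and *sos-1* (2.70 and 3.54). A stronger member, assigned to the nearer start of ZK792.12 (8.70 and 9.92), also lay 1385 bp upstream of *let-60*. Genes of the G1 to S transition had one in 4 of 28 cases, with *cki-1* followed by *lin-23* (5.91 and 5.17), *cya-1*, a cyclin A gene (3.52 and 4.72), and *cul-1* (4.47 and 3.49). The *cul-1* member lay 803 bp upstream of *cul-1* and also 810 bp upstream of D2045.5. Notch pathway genes had one in 2 of 22 cases, *sup-17*, a metalloprotease gene (5.29 and 4.90), and *lin-12*. The intervals of these 3 lists were wide, with ends between 1.12 and 38.8%, and each included the 5.24% of all genes. On the other scale G1 to S genes, with little sequence that met the rule, held 384.7 members per Mb, second only to the anchor cell list, and EGF and Ras genes held 188.6 and Notch genes 122.5.

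Among transcription factor families, homeobox genes had a member in 9 of 73 cases (12.3%, 5.80 to 22.1%), led by *ceh-43*, the Distal-less homolog (6.77 and 6.16), *ceh-23* (4.62 and 5.06), *nob-1* (3.75 and 4.89) and *ceh-58* (3.25 and 4.34). C2H2 zinc finger genes had one in 5 of 48 cases, with *spr-4* (10.7 and 10.2), *sup-37* (5.23 and 5.06) and *lin-13* (4.68 and 4.37) after *egl-43*. bZIP genes had one in 4 of 24, *atf-2* (4.36 and 2.86), *ces-2* (3.66 and 2.70), *fos-1* and *jun-1*, and all 4 lay under the median member in replicate 2. bHLH genes had one in 2 of 31, *mml-1* (7.97 and 9.13) and *hlh-2*. Nuclear hormone receptor genes had one in 12 of 247 cases (4.86%, 2.54 to 8.33%), near the share of all genes, led by *nhr-10* (10.05 and 8.88), *nhr-21* (8.37 and 7.28), *nhr-70* (6.82 and 6.59) and *nhr-112* (5.49 and 6.92). Per Mb, homeobox genes held 135.7 members and C2H2 genes 114.5, close to the 108.5 of all genes, bZIP genes held 195.4, and nuclear hormone receptor and bHLH genes held 75.3 and 70.4. The 37 T-box, Sox, forkhead and GATA genes had 1, *daf-16*, the FOXO factor (3.39 and 5.03).

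At these limits neuronal channel and receptor genes were near the share of all genes, with 7 of 119 (5.88%) and 63.8 members per Mb. They were led by *slo-1*, a potassium channel gene (9.17 and 11.98), *unc-63*, an acetylcholine receptor subunit (8.89 and 11.2), *tax-4* (4.44 and 4.81) and *lgc-44* (4.29 and 4.07). Chemoreceptor, neuropeptide, collagen and ribosomal protein genes had lower shares, and the interval of the last, up to 6.77%, included that of all genes. Chemoreceptor genes had one in 11 of 1254 cases (0.88%, 0.44 to 1.56%) and 14.8 members per Mb, led by *sre-23* (4.18 and 4.91), *srg-55* (3.42 and 4.88), *srh-171* and *srab-14* (3.05 and 3.21). Neuropeptide genes had 1 of 106 (*nlp-47*, 4.62 and 5.03), cuticle collagen genes 1 of 146 (*col-157*, 4.29 and 4.15) and cytosolic ribosomal protein genes 1 of 80 (*ubl-1*, 5.22 and 6.998). These 3 lists held 9.53, 17.3 and 77.1 members per Mb in this order. Ribosomal protein genes differed from the other lists close to the start, where 53 of 80 (66.2%) had a shared region at 1 to 500 bp, against 8.73% of all genes. Next there came G1 to S genes (32.1%), anchor cell genes (23.1%), Wnt genes (20.8%) and EGF and Ras genes (17.4%). The other lists lay between 1.04 and 12.5%, with axon guidance genes at 10.7%.

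**Figure D5:**
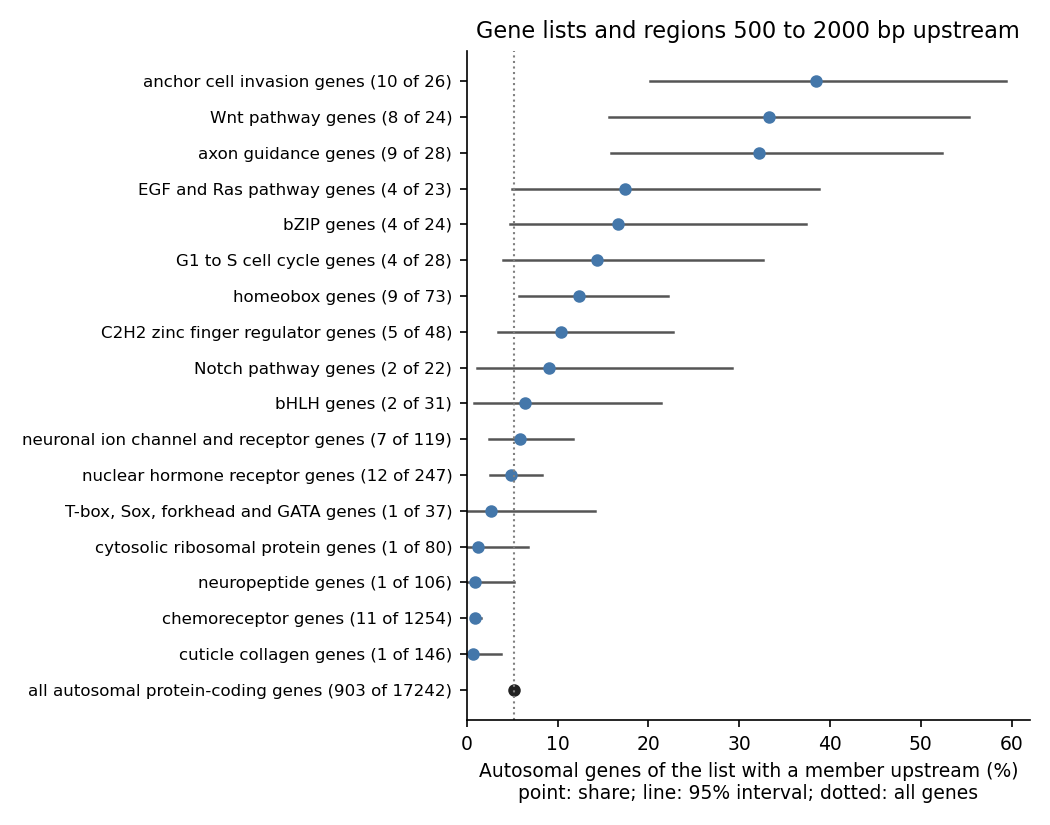
Percent of the autosomal genes of each list that are the nearest start of a member (points, x axis) with 95% Clopper-Pearson intervals (lines), with the counts beside the names and all autosomal protein-coding genes at the bottom and as the dotted line at 5.24%. Anchor cell invasion, Wnt pathway and axon guidance genes lie at 38.5, 33.3 and 32.1%, and chemoreceptor and collagen genes at 0.88 and 0.68%.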

How the data were processed

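EGL-43::GFP ChIP-seq peaks of 2 replicates of 1 condition were taken from the deposited lists. The authors aligned reads to ce11 with BWA, converted them with SAMtools and called peaks with MACS2 on each replicate, stating an FDR of 0.05. No listed q-value exceeds 0.00395 in replicate 1 or 0.00688 in replicate 2. The lists (8394 and 10925 peaks) precede the authors' splitting, BEADS and blacklist steps. For each peak the authors deposited a fold enrichment (a ratio, summit reads over the background estimated by the caller), −log10 of the p-value and q-value, a score (derived from the q-value, not used) and the summit position. Read totals are not in the lists, so the depth is unknown and reliability was judged from the spread between replicates. The p-values and q-values were not recomputed.

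Chromosome ends of the WBcel235 sequence were checked against the last peak positions. Genes came from Ensembl release 115. Where a replicate had several peaks in a region, the strongest counted. Sequence meeting the rule was counted base by base. Words were searched on both strands within 50 bp of summits and in flanks centred 500 bp away. Repeats are those soft-masked in the RefSeq sequence of this build. No test was made, as regions are not replicates. Members and lists were chosen with earlier results of these data known. The genes named are the 20 highest members, those of genes the study examined, the 4 highest of each list, genes with 3 or more members, members at the limits and the 5 largest replicate differences. Alternatives were a q-value of 1e-05, stricter overlaps, other starts, gene bodies, windows, limits and each replicate alone. Merging, classing and word search were tested on simulated data. Python 3.11.15, numpy 2.4.6, scipy 1.17.1 and matplotlib 3.10.9 were used.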

Additional observations from a re-analysis of the deposited data

How the results depend on the processing

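Counting summits inside any annotated gene other than piRNAs as gene bodies lowered the members to 12.03% of shared regions. Windows of 100 bp either side gave GAGAGA in 55.5% of members and 11.21% of flanks, and windows of 25 bp gave 24.5% and 2.81%. Each replicate alone gave 1122 to 1395 members and 124.6 to 154.9 per Mb. The peaks of replicate 2 alone had a median of 3.97-fold, and those of replicate 1 alone had 3.92-fold. No other alternative for the members' number, share, density or median fold enrichment, or for the GAGAGA shares, moved a count by over 1.5 times, a share beyond its interval or a median by more than the SD of the replicates' medians. These included a q-value of 1e-05, stricter overlaps, transcript starts and, chosen after seeing the data, leaving out summits in soft-masked sequence. With the limit at 1000 bp the anchor cell list fell to 19.2%, the Wnt list to 8.33%, the axon guidance list to 7.14% and the neuronal channel list to 0.84%, against 2.34% of all genes, and the bHLH, bZIP, neuropeptide and T-box, Sox, forkhead and GATA lists had no member left. With the limit at 5000 bp the neuronal channel list rose to 14.3% and the nuclear hormone receptor list to 8.91%, against 7.69% of all genes. The Wnt list then stood at 50%, the axon guidance list at 39.3% and the anchor cell list at 38.5%. At a q-value of 1e-05 the anchor cell list stood at 30.8%, the Wnt list at 29.2% and the axon guidance list at 25%. The bZIP list stood at 8.33% at that q-value, down from 16.7%, against 4.84% of all genes. No paired analysis was possible because there is 1 group. The limits are the unknown depth, the lack of a control library, whole larvae as material, and the nearest annotated start as the only link to a gene.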

Other observations

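Peaks called in a single replicate were left out of the members. In replicate 1, 114 of the 1122 peaks that met the distance rule had no overlapping peak in replicate 2, with a median of 2.87-fold and a maximum of 4.88-fold. In replicate 2, 393 of 1395 had none in replicate 1, with a median of 2.95-fold. The highest of these lay 1094 bp upstream of *pes-4* on chromosome III, at 1231226 to 1231593, with 6.498-fold enrichment, and 7 of the 393 reached 5-fold. GAGAGA stood within 50 bp of the summit in 25.4% of the peaks found in replicate 1 alone and in 18.1% of those found in replicate 2 alone. It stood in 40.1% of all members, and in 29.9% of the lowest of the 4 parts (lower fold enrichment of at most 3.14). The part of enrichment in these differences was not tested.

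Members with long regions were as common as in distal sequence. A length of at least 800 bp was reached by 90 members (9.21%, interval 7.47 to 11.20%), against 4.05% at 1 to 500 bp upstream (3.02 to 5.31%), 9.57% of distal intergenic and 10.02% of intronic regions. The median member was 381 bp long, against 310 bp at 1 to 500 bp upstream.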
